A study of Mus musculus with 6 samples.

Results

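Gene expression after bleomycin (BLM) was compared with sham treatment within Lamp1-enriched lung cells, that is, live cells of dissociated mouse lung sorted for Lamp1 on their surface. Both groups were C57BL/6 mice. The BLM group received BLM sulfate and the sham group sterile saline, each by oropharyngeal instillation, and lungs were taken 21 days later. The study's methods describe male C57BL/6J animals, with 2 to 3 lungs of a group pooled before dissociation, so that a library stands for a pool and not for a mouse. The methods name more than 1 BLM dose without saying which these mice received, and the labels give neither their dose nor their age. The comparison rests on 2 of the 6 libraries of the series, 1 for each treatment. Genes were taken when they held at least 10 reads in either library, which left 21671 of the 49315 genes in the count table.

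BLM is a DNA-breaking agent that injures the alveolar epithelium and capillaries of the lung, and in mice it is followed within weeks by fibrosis, the laying down of collagen-rich matrix by activated fibroblasts. Lamp1 is a heavily glycosylated protein of the lysosomal membrane. It reaches the cell surface when lysosomes fuse with the plasma membrane, and the study used it there as a marker of senescent cells. Among the cells of the alveolar wall, capillary endothelium is the most exposed to blood and to the platelets that pass through it.

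With 1 library a side there was no replicate, so no p-value was computed and no difference could be set against the spread between mice. Levels are given as counts per scaled library size (CPM), and differences as the log2 ratio of BLM over sham. The 95% interval given beside a ratio covers counting error only. A gene was called higher or lower when its level differed at least 2-fold and its interval excluded a ratio of 1. The counted reads of the 2 libraries were 45090413 for sham and 52918696 for BLM, within a range over the 6 libraries from 30236120 to 52918696, and their scaling factors were 1.02 and 1.03. The BLM Lamp1-depleted library stood apart, with 38.4% of its reads on the predicted gene Gm26917. Which RNA these reads came from was not tested. BLM over sham in that fraction, 12 of 13 mitochondrially encoded genes were called higher (13.3% of all genes) and 49 of 82 cytosolic ribosomal protein genes lower (19.7% of all genes), and the median of all genes was −0.20. The part of this library's make-up in the Lamp1-depleted ratios was not tested.

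Most genes of Lamp1-enriched cells differed less than 2-fold between BLM and sham, with a tail on either side. Of the 21671 genes, 1941 (8.96%) were called higher and 1519 (7.01%) lower, and the median log2 ratio of all genes was −0.0003, with quartiles at −0.33 and 0.37. Differences of at least 8-fold were less even, with 293 genes higher (1.35%) and 138 lower (0.637%). The scaling assumes that most genes do not differ, so a median near 0 is no result in itself. The counting interval included 0 for 9072 of the 21671 genes. The shares of 8.96% and 7.01% are the background for the counts within each list, and a count near them is no result about the list. Some genes belong to several lists, so the counts of different lists are not separate results. Examples are Ackr1 (venous and leukocyte adhesion), Inhba (injury-activated endothelial and TGF-beta) and Grem1 (BMP and activated fibroblast). Many of the calls rest on few reads. Of the genes called higher, 479 had 3 or fewer reads in the sham library, and 226 of those called lower had 3 or fewer in the BLM library. Among genes with at least 10 reads in both libraries, 1121 were higher and 999 lower. The plot of ratio against level shows the named genes within this spread.

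**Figure D1:**
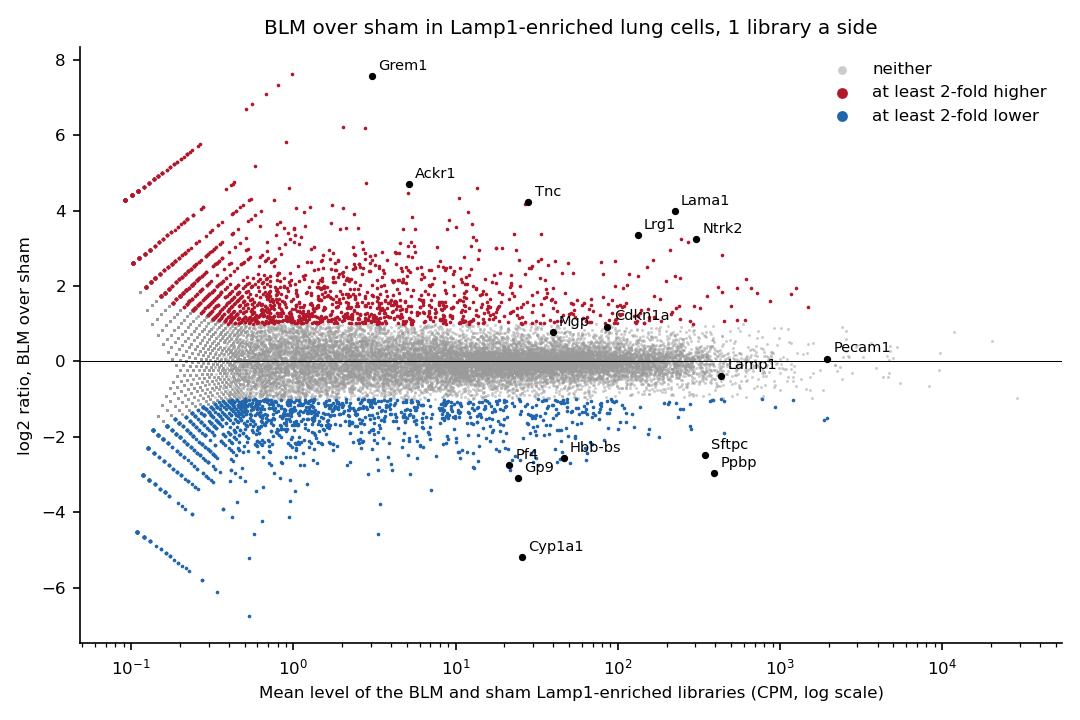
Log2 ratio of BLM over sham (y axis) against the mean level of the 2 Lamp1-enriched libraries (x axis, CPM on a log scale), 1 point for each of the 21671 genes, with 1941 called higher in red and 1519 called lower in blue. Lama1, Lrg1 and Ntrk2 stand out among higher genes of substantial level, Cyp1a1, Ppbp and Sftpc among lower ones, and the fans of points at the left edge are genes of a few reads.

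Pan-endothelial genes marked the Lamp1-enriched cells in either treatment. Pecam1, the adhesion molecule CD31 of endothelial junctions, was at 1908 CPM in the sham and 2009 CPM in the BLM library, against 1123 and 746 CPM in unsorted cells and 400.1 and 340.1 CPM in Lamp1-depleted cells. The summed level of the 14 pan-endothelial genes was 16241 CPM in sham and 14470 CPM in BLM Lamp1-enriched cells. None of the 14 was called in either direction, and their median log2 ratio was −0.07. In unsorted cells 6 of the 14 were called lower, against 14.1% of all genes there, with a median of −0.87. Fewer cells of a type and less RNA per cell cannot be told apart in such bulk samples.

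The 8 general capillary genes were likewise not called, with a median of 0.01. Kit, the stem cell factor receptor that marks general capillary cells, had 37606 reads in sham and 60501 in BLM, a log2 ratio of 0.44. Plvap, which forms the diaphragms of endothelial fenestrae and caveolae, had the lowest ratio of the list at −0.91, from 656 to 349 CPM. Aerocyte genes, which mark the large capillary cells specialised for gas exchange, lay lower. Of 7, 3 were called lower and none higher, and the median was −0.82. Fibin went from 86.7 to 21.9 CPM, Ednrb, the endothelin B receptor, from 342 to 142 CPM, and Apln, the ligand apelin, from 129 to 61.6 CPM. Car4, the carbonic anhydrase on the luminal face of capillaries, was at 170 CPM in sham and 96.2 CPM in BLM and was not called.

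Of 11 arterial genes, 2 were called higher and none lower (median −0.05). These were the gap junction genes Gja5, at 32.6 CPM in sham and 103 CPM in BLM, and Gja4, at 126 and 302 CPM. The Notch ligand Dll4 had the lowest ratio of the arterial list, −0.46. Among 8 venous genes, Ackr1 was called higher and Vcam1 lower (median 0.21). Ackr1 encodes the atypical chemokine receptor of venules, which binds chemokines without signalling through them. It lies at chr1:173331886-173333750 (GRCm38) and had 17 reads in the sham and 541 in the BLM library, a log2 ratio of 4.71 (4.05 to 5.54). Vcam1, the ligand of the leukocyte integrin VLA-4, went the other way, from 127 to 48.6 CPM. Vwf, the clotting protein stored by endothelium and platelets, was at 2052 CPM in sham and 3077 CPM in BLM, short of the 2-fold call. Of 6 lymphatic genes with enough reads, 1 was higher (Pdpn, 1.47) and 2 lower (Lyve1, −1.05, and Mmrn1, −2.32).

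Genes of injury-activated endothelium, a capillary state seen in regenerating and fibrotic lungs, had the highest median of the endothelial lists. The lists and their members were chosen with earlier results of these data known, so this rank is a description and not a test. Of 10, 6 were called higher and 2 lower, at a median of 1.46. Lrg1, a secreted glycoprotein that modifies TGF-beta signalling in vessels, was at 23.6 CPM in sham and 242 CPM in BLM, a log2 ratio of 3.36 (3.27 to 3.45). Ntrk2, the neurotrophin receptor TrkB, was at 58.2 and 549 CPM, a log2 ratio of 3.24 (3.18 to 3.30). Col15a1, a basement membrane collagen, was at 13.8 and 84.7 CPM, and Inhba, the activin A subunit, had 6 reads in sham and 119 in BLM. These 4 genes were higher in BLM than in sham in the unsorted and Lamp1-depleted cells too, as the plot of levels in all 6 libraries shows for Lrg1 and Ntrk2. Angpt2, an antagonist ligand of the Tie2 receptor, was at 24.6 CPM in sham and 6.02 CPM in BLM, and Esm1, a proteoglycan of endothelial tip cells, at 10.8 and 2.83 CPM. All 14 pan-endothelial genes stayed uncalled beside these differences, while platelet genes were lower and activated fibroblast and macrophage genes higher in the same library, as given further on. Their part in the differences was not tested.

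**Figure D2:**
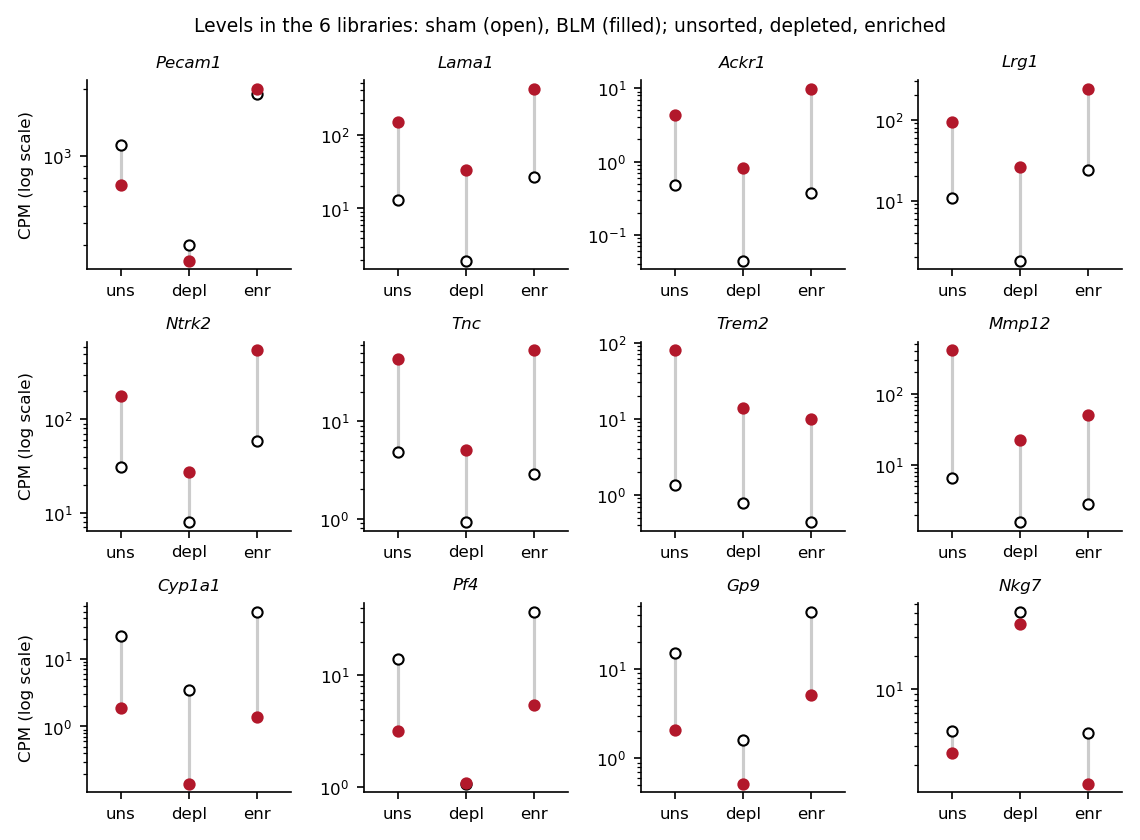
Levels of 12 genes in the 6 libraries (y axis, CPM on a log scale; x axis, unsorted, Lamp1-depleted and Lamp1-enriched cells as uns, depl and enr; open circles sham, filled circles BLM, 1 library each). Lrg1 and Ntrk2 are higher and Cyp1a1 lower after BLM in each fraction, Pecam1 differs between treatments by far less than between fractions, and the 2 circles of Pf4 coincide in Lamp1-depleted cells.

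Of 15 VEGF and angiopoietin genes, 2 were called higher and 2 lower (13.3% each), close to the 8.96% and 7.01% of all genes. Nrp2, a co-receptor of VEGF-C, was at 44.8 CPM in sham and 130 CPM in BLM, and Angpt1, the agonist ligand of Tie2, at 48.4 and 13.5 CPM. Vegfa itself was at 282 and 469 CPM and was not called. Among 15 genes of vascular tone, 1 was higher and 5 lower, with a median of −0.80. Nos3, the endothelial nitric oxide synthase, was the higher one, at 29.6 and 70.1 CPM. Gucy1a1, a subunit of its target guanylate cyclase, was at 243 and 70.2 CPM. The angiotensin receptor gene Agtr1a had a log2 ratio of −2.11, and Npr3, the clearance receptor for natriuretic peptides, one of −1.71. Gucy1a1 and Agtr1a are genes that pericytes and smooth muscle also express, and pericyte genes were lower in the BLM library, and the part of those cells was not tested.

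In coagulation and fibrinolysis, 1 of 16 genes was called higher and 2 lower, close to the shares of all genes. Of the 16, 12 were above 0, and the median was 0.16. The lower genes were F5 and F13a1. F5, clotting factor V, went from 132 to 31.0 CPM and F13a1, the factor XIII A chain, from 25.1 to 10.1 CPM, and both are carried by platelets. Of 11 leukocyte adhesion genes, Ackr1 and Cd34 were higher and Vcam1 was lower, while Icam1 was at 182 and 171 CPM.

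The BMP pathway holds back TGF-beta signalling in lung vessels and is itself held back by secreted antagonists. Of 17 BMP genes, 1 was higher and 2 were lower, close to the shares of all genes, with a median of −0.18. The antagonist gene Grem1, at chr2:113746164-113758646, had 1 read in the sham library and 330 in the BLM library, a log2 ratio of 7.58 with an interval from 5.63 to 13.43. It had 1 read in sham and 352 in BLM in unsorted cells, and 1 and 10 in Lamp1-depleted cells. Another antagonist, Nog, had 82 reads in sham and 5 in BLM, so the 2 antagonists differed in opposite directions. Smad9, a signal transducer of the pathway, was the other lower gene (−1.44), and the receptor gene Bmpr2 had a log2 ratio of −0.56. In TGF-beta signalling, 4 of 20 genes were higher and none lower. The median was 0.30, and 0.18 over the 19 genes with at least 10 reads in both libraries. The higher genes were Inhba (3.97), Tgfbi (2.49), Inhbb (2.48) and Itgb6 (1.20), an activin A and an activin B subunit, a secreted target protein of TGF-beta, and an integrin subunit that frees TGF-beta from its latent form. Tgfb1 itself was at 142 CPM in sham and 118 CPM in BLM.

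Outside any list, the lowest log2 ratio among genes with at least 100 reads belonged to Cyp1a1, the cytochrome P450 that the aryl hydrocarbon receptor switches on. Cyp1a1 had 2300 reads in the sham and 74 reads (1.36 CPM) in the BLM library, a log2 ratio of −5.19 (−5.56 to −4.87), or 36.6-fold lower. It was at 21.4 CPM in sham and 1.90 CPM in BLM unsorted cells, and at 3.42 and 0.142 CPM in Lamp1-depleted cells, so that each BLM library was below each sham library. The 250 bases before its start (RefSeq, GRCm38.p6, chr9:57697363-57697612, plus strand) are printed because the receptor binds a short core, GCGTG, which was searched on both strands and occurs 1 time there, in capitals:

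Cyp1a1: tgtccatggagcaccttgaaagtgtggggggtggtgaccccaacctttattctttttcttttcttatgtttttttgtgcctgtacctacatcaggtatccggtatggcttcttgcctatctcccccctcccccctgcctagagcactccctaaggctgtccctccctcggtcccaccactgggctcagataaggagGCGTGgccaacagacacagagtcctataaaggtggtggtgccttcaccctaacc

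The same core was found in 28.2% of the 32851 promoters of that length, so the match is a description and not a binding site.

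The other genes at this end, chosen by rank, were of several kinds. Which cells their transcripts came from was not tested. Chia1, an acidic chitinase of airway and alveolar type 2 cells, had 295 reads in sham and 14 in BLM. Acoxl, a relative of the acyl-CoA oxidases, had 295 and 25. Lrat, which esterifies retinol for storage, had a log2 ratio of −2.89, and Adra1a, the alpha-1A adrenergic receptor, went from 9.32 to 1.17 CPM. Nox1, an NADPH oxidase, Vtn, the adhesion protein vitronectin, Slc5a12, a monocarboxylate transporter, and Tmem40 had log2 ratios from −2.88 to −2.74. Klra8, an NK cell receptor, was at −3.26 and Bpifa1, a secreted airway protein, at −2.98. The remaining 4 of the 15 were members of the platelet list.

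Platelet genes were lower without exception. All 14 had at least 10 reads and all 14 were called lower, against 7.01% of all genes, with a median of −2.43. Ppbp, the platelet chemokine precursor, had 31914 reads (694 CPM) in sham and 4835 (88.7 CPM) in BLM, a log2 ratio of −2.97 (−3.01 to −2.92). Gp9, a subunit of the von Willebrand factor receptor, was at 43.6 and 5.10 CPM (−3.09, interval −3.28 to −2.91). Pf4, platelet factor 4, was at 37.2 and 5.49 CPM, and Treml1, a receptor of platelet granules, at 22.4 and 3.19 CPM. The narrowest difference was that of Clec1b, the podoplanin receptor, at 58.6 and 24.6 CPM. Platelets carry RNA but no nucleus, and Lamp1 appears on their surface when they release their granules. Which cells or fragments carried these transcripts was not tested.

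The summed level of the 14 platelet genes was 1533 CPM in sham Lamp1-enriched cells, 493 CPM in sham unsorted and 105 CPM in sham Lamp1-depleted cells, and 273, 126 and 74.3 CPM in the BLM libraries in the same order. In unsorted cells 13 of the 14 were called lower (14.1% of 22772 genes), and in Lamp1-depleted cells 9 of the 14 (19.7% of 20852 genes). The erythroid list lay in the same direction. All 5 of its genes were called lower, with a median of −2.57, and their summed level went from 179 to 31.4 CPM. Hbb-bs, a beta globin, was at 79.6 CPM in sham and 13.4 CPM in BLM. The 2 alpha globin genes and the 2 beta globin genes are near-identical copies between which reads could have been split, so their separate values are uncertain. Alas2, the erythroid enzyme that starts haem synthesis, is not such a copy and went from 9.09 to 2.29 CPM.

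Megakaryocytes share the GATA1 factor with erythroid cells, and promoters of platelet genes are known to hold its motif. The letters AGATAA were searched, as were TGATAA, then the forms AGATAG or else TGATAG, on both strands in the 250 bases before the start of the 12 platelet genes that had an entry in the RefSeq promoter table (GRCm38.p6). At least 1 occurred in 5 of the 12, against 26.5% of the 32851 promoters of that length. The 3 with a match and the lowest log2 ratios are printed with the matched letters in capitals. Gp6, a collagen receptor, lies on the minus strand at chr7:4397745-4397994 and had a log2 ratio of −2.74. Gp1ba, another subunit of the von Willebrand factor receptor, lies on the plus strand at chr11:70638872-70639121 and had one of −2.42. Gp5, a further subunit of it, lies on the minus strand at chr16:30310782-30311031 and had one of −2.37.

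Gp6: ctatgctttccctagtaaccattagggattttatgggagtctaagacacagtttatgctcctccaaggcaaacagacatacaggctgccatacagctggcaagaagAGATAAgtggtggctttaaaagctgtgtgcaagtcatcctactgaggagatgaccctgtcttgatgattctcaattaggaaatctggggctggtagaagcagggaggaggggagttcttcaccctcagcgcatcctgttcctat

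Gp1ba: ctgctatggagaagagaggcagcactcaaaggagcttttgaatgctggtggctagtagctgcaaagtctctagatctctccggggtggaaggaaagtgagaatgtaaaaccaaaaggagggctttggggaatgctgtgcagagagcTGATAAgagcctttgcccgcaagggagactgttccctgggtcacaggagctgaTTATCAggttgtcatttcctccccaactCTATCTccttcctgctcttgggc

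Gp5: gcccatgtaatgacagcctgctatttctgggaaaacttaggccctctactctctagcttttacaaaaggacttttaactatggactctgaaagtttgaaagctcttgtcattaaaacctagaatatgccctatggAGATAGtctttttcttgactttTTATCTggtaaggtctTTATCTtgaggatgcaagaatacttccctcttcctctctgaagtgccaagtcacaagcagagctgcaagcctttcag

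Gp6 held 1 match and Gp1ba and Gp5 held 3 each. Gp9, Ppbp, Treml1 and Pf4 held none in this window, although their ratios were lower still, and nothing follows from that about the factor.

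Mesenchymal lists divided by cell state. Of 14 resting fibroblast genes, 5 were called lower and none higher (median −0.74). Inmt, an amine methyltransferase of alveolar fibroblasts, went from 110 to 17.9 CPM, and Slc7a10, an amino acid transporter, had a log2 ratio of −2.70. The lineage factor Tcf21 was at 6.96 and 2.55 CPM, and Pdgfra, a receptor found across lung fibroblasts, at 64.2 and 39.9 CPM, which was not called. Of 9 pericyte genes, 5 were lower and none higher (median −1.23). Trpc6, a cation channel, went from 49.9 to 12.9 CPM and Gucy1b1, a guanylate cyclase subunit, from 133 to 39.4 CPM. Activated fibroblast genes lay on the other side, with 10 of 16 higher, 1 lower and a median of 2.29, or 1.34 over the 13 genes with at least 10 reads in both libraries.

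Tnc, the matrix glycoprotein tenascin C of healing tissue, was at 2.85 CPM in sham and 53.4 CPM in BLM, a log2 ratio of 4.22 (3.98 to 4.49). Thbs2, a matricellular thrombospondin, had 61 and 543 reads, and Sfrp1, a Wnt inhibitor, 127 and 855. Lrrc15, a membrane protein of myofibroblasts, had 1 and 29 reads, a log2 ratio of 4.09 with an interval from 2.02 to 9.97. Cthrc1 and Fap, which mark the most strongly activated fibroblasts, were not called (0.20 and 0.28), nor was Aspn (0.79). Postn was the lower gene of the list. Of 10 smooth muscle genes, 2 were higher, Acta2 (1.34) and Actg2 (3.25), and Synpo2 was lower (−1.32), while the contractile gene Myh11 was at 24.5 and 17.3 CPM. In the small mesothelial list, Msln, Upk3b and Lrrn4 of 5 genes were higher, and the median was 1.99, or 1.08 when the sixth gene of the list, with fewer than 10 reads, was counted. The summed level of the list was 10.2 CPM in sham and 16.9 CPM in BLM.

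**Figure D3:**
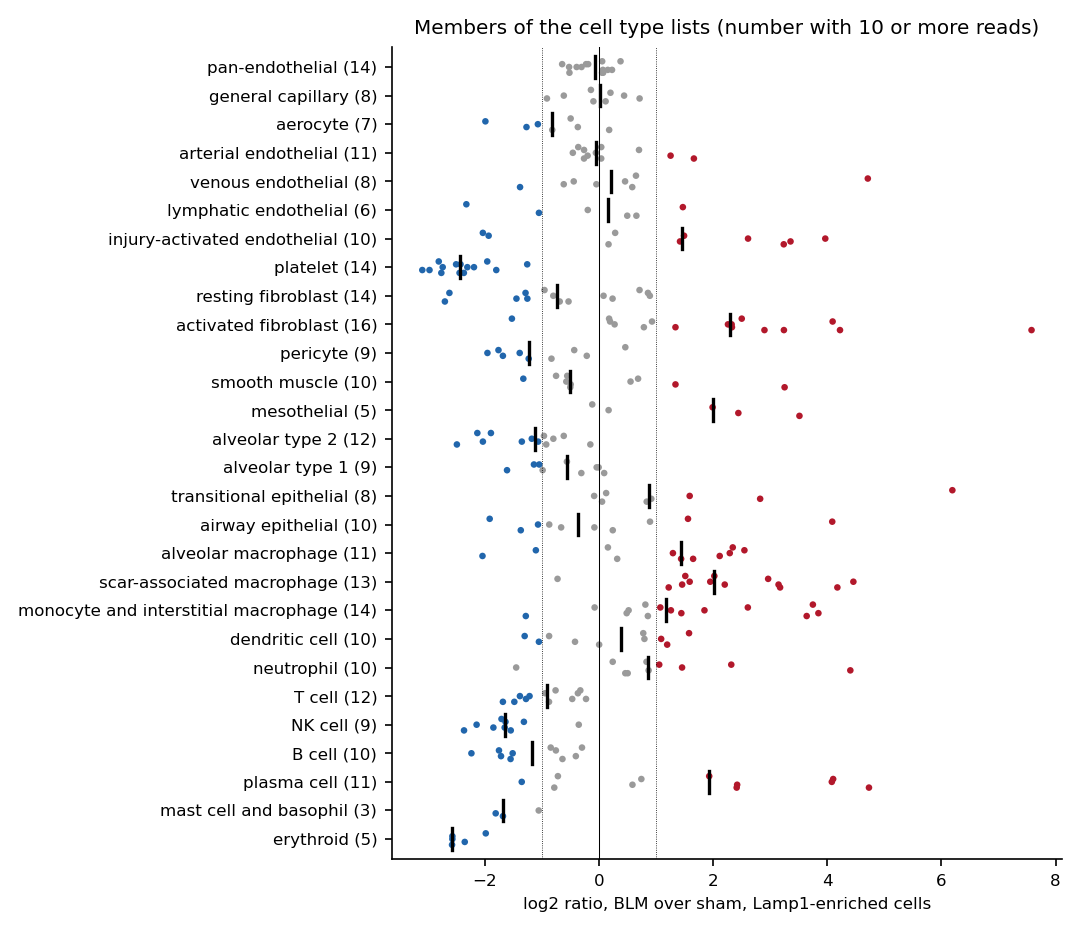
Log2 ratios of BLM over sham in Lamp1-enriched cells (x axis) for the members of 28 cell type lists (rows, with the number of genes that had at least 10 reads), with genes called higher in red, called lower in blue and not called in grey. Black bars are medians and dotted lines mark 2-fold. Platelet and erythroid genes lie wholly to the left, pan-endothelial genes straddle 0, and scar-associated macrophage genes lie almost wholly to the right.

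Matrix genes were higher across several classes. In the basement membrane list, 7 of 21 genes were higher, against 8.96% of all genes, and none was lower. Lama1, the laminin alpha-1 chain, which is scarce in the adult lung, is encoded at chr17:67697259-67822647. It had 1226 reads (26.6 CPM) in sham and 23037 (423 CPM) in BLM, a log2 ratio of 3.99 (3.90 to 4.07). It was 11.5-fold higher in BLM in unsorted cells, at 149 CPM, so that the BLM Lamp1-enriched library held the highest level of the 6. The other laminin alpha chains measured, Lama2, Lama3, Lama4 and Lama5, had log2 ratios from −0.32 to 0.69 and were not called. The collagen IV chains divided likewise. Col4a1 was at 513 and 1979 CPM and Col4a2 at 276 and 1058 CPM, and these 2 chains form the common heterotrimer of vessel walls. Col4a3 and Col4a4, chains of the alveolar membrane, had log2 ratios of −0.04 and 0.10. Hspg2, the proteoglycan perlecan, was at 84.8 and 223 CPM.

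Of 10 fibrillar collagen genes, 8 were higher and none lower (median 1.94). Col5a2, which helps set fibril diameter, was at 27.2 and 84.1 CPM, and Col5a3 had 73 and 467 reads. The one member below 0 was Col27a1, at 4.02 and 3.12 CPM. Of 17 other collagens, 3 were higher, among them Col6a3 (1.52) and Col28a1 (3.32), while Col12a1 had a log2 ratio of −0.93. Among 19 genes for collagen processing and crosslinking, 4 were higher and 2 lower. P4ha3, a prolyl hydroxylase subunit, had 5 and 108 reads, and Lox, the enzyme that crosslinks collagen and elastin, was at 8.69 and 35.4 CPM. Adamts2, which trims the amino-propeptide of collagen, had a log2 ratio of 2.18 and Adamts14, a relative of the same function, one of −1.19.

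Of 22 matricellular and elastic fibre genes, 13 were higher and none lower (median 1.54). Fn1, fibronectin, was at 109 CPM in sham and 768 CPM in BLM, and Vcan, the proteoglycan versican, at 5.35 and 41.6 CPM. Sparc and Sparcl1, secreted collagen-binding proteins, were at 429 and 1305 CPM and at 168 and 658 CPM. Eln, elastin, was at 77.3 and 256 CPM. The TGF-beta responsive genes Ccn1 and Ccn2 were not called, with log2 ratios of 0.07 and −0.38. Of 24 metalloproteinase and TIMP genes, 13 were higher and none lower (median 1.56). Timp1, an inhibitor of these proteases, had 50 reads in sham and 499 in BLM. Adamts4, which cleaves aggrecan and versican, had 58 and 484. Mmp10 had 0 reads in sham and 23 in BLM, at least 6.47-fold higher against 3 reads. Timp2, made by most cells, was at 490 and 450 CPM. Fibroblast, endothelial and macrophage genes all make parts of these lists, and the share of each cell type in them was not tested.

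Epithelial genes were read in the sorted cells of both treatments. Epcam, the epithelial adhesion molecule, was at 2.26 CPM in sham and 2.77 CPM in BLM. The summed level of the alveolar type 2 list was 1231 and 398 CPM, and that of the alveolar type 1 list 2415 and 1788 CPM, most of it from Clic5, a chloride channel family gene at 1771 and 1431 CPM. In sham unsorted and Lamp1-depleted cells the type 1 sum was 1752 and 237 CPM, so like the pan-endothelial sum it was highest in Lamp1-enriched cells. Which cells the Clic5 transcripts came from was not tested, so the sum is no measure of type 1 cells. All 12 alveolar type 2 genes had ratios below 0 and 7 were called lower (median −1.12). Sftpc, surfactant protein C, was at 585 and 104 CPM, Cxcl15 at 110 and 25.1 CPM, and Abca3, the lipid pump of lamellar bodies, at 112 and 101 CPM. Of 9 alveolar type 1 genes, 3 were lower and none higher, with Hopx at 156 and 51.0 CPM and Ager, the defining type 1 receptor RAGE, at 43.5 and 46.4 CPM. In the transitional epithelial list, which describes type 2 cells on the way to type 1, 3 of 8 were higher. Cldn4, a tight junction protein of that state, had 3 reads in sham and 299 in BLM, a log2 ratio of 6.19 (4.83 to 8.68). Areg, a growth factor ligand of the EGF receptor, had 17 and 146 reads. Krt8 and Krt18, the keratin pair of the same state, had log2 ratios of 0.84 and 0.92 and were not called. Of 10 airway genes, 2 were higher, the basal cell genes Krt5 (2 and 49 reads) and Trp63 (14 and 50 reads), and 3 were lower, with Scgb1a1, the club cell secretory protein, at 61.8 and 23.9 CPM.

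Ptprc, the pan-leukocyte gene CD45, was at 202 CPM in sham and 173 CPM in BLM, but the leukocyte lists differed in kind. Of 13 scar-associated macrophage genes, 12 were higher and none lower, with a median of 2.02. Trem2, a lipid-sensing receptor of such macrophages, had 20 reads in sham and 532 in BLM, a log2 ratio of 4.46 (3.85 to 5.21). Mmp12, macrophage elastase, was at 2.80 and 50.9 CPM, Spp1, osteopontin, at 53.7 and 485 CPM and Ctsk, the collagen-cleaving cathepsin K, at 3.17 and 24.8 CPM. Cd9, a tetraspanin that endothelium also makes, was the exception at 316 and 191 CPM. The summed level of the list went from 581 to 1375 CPM, against 593 and 7383 CPM in unsorted cells.

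Alveolar macrophage genes were higher in 7 of 11 and lower in 2 (median 1.44). Itgax, the integrin CD11c, was at 17.4 and 88.7 CPM, while Siglecf, a lectin that defines resident alveolar macrophages, was at 3.35 and 4.18 CPM. Krt79 and Ear1, 2 further genes of resident cells, were the lower ones (−2.04 and −1.10). Monocyte and interstitial macrophage genes were higher in 8 of 14 and lower in 1. C1qa, C1qb and C1qc, which encode the chains of complement C1q, had 58, 86 and 32 reads in sham and 930, 1276 and 552 in BLM. The inflammatory monocyte gene Ly6c2 was the lower one, at 7.46 and 3.06 CPM. Of 10 dendritic cell genes, 3 were higher (Flt3, Xcr1 and Itgae) and 2 lower (Cd209a and Ccr7).

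In MHC class II presentation, 3 of 11 genes were higher, Ctss (2.70), the transactivator Ciita (1.17) and Cd74 (1.11), and H2-Oa was lower (−1.41). The class II chains H2-Aa, H2-Ab1 and H2-Eb1 had log2 ratios of 0.41, 0.71 and 0.84. Of 10 neutrophil genes, 4 were higher, against 8.96% of all genes, and none lower (median 0.85). Only 7 of the 10 had at least 10 reads in both libraries, with a median of 0.83. Csf3r, the G-CSF receptor, was at 9.74 and 26.8 CPM, and Ly6g had 0 reads in sham and 11 in BLM, at least 3.10-fold higher against 3 reads. The summed neutrophil level was 33.6 and 64.9 CPM.

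Lymphocyte genes lay below 0 throughout. All 9 NK cell genes had negative log2 ratios and 8 were called lower (median −1.65), with Ncr1, the activating receptor NKp46, at 80 reads in sham and 18 in BLM and Gzma, granzyme A, at 199 and 53. Of 12 T cell genes, all below 0, 5 were called lower, among them Cd8b1 (−1.68) and Cd28 (−1.48), and Cd3e was at 5.15 and 2.81 CPM. Among 10 B cell genes, again all below 0, 5 were called lower, with Cd79b, a chain of the antigen receptor, at 23.1 and 4.92 CPM. The NK, T and B cell lists summed in Lamp1-enriched cells to 23.7, 45.8 and 382 CPM in sham and 7.41, 28.1 and 206 CPM in BLM. In Lamp1-depleted cells the sums were far larger, at 289, 933 and 7198 CPM in sham and 125, 590 and 2732 CPM in BLM. In unsorted cells they were 37.9, 69.2 and 499 CPM in sham and 17.3, 101 and 403 CPM in BLM. Which cells carried the few lymphocyte reads of the Lamp1-enriched libraries was not tested.

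Plasma cell genes went against the other lymphocyte lists, with 6 of 11 higher and 1 lower. The median was 1.93, and 0.74 over the 9 genes with at least 10 reads in both libraries. The higher ones were Jchain, which links IgA and IgM, at 124 and 785 reads, and 5 heavy chain constant genes. Ighg1 had 9 and 297 reads, Ighg2c 10 and 209, Ighg3 6 and 131, Ighg2b 19 and 123, and Igha 45 and 205. The IgG genes are similar in sequence and reads may have been split among them, so their separate ratios are uncertain. Igkc, the kappa light chain, was not called (54.5 and 31.7 CPM), and Mzb1, a chaperone of antibody-making cells, was lower, at 89 and 41 reads. Tnfrsf17, the plasma cell receptor BCMA, had 1 and 0 reads. Of 6 mast cell and basophil genes, 3 had enough reads, and 2 of these were lower (Cpa3 and Ms4a2).

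Of 12 genes of type 2 immunity, 5 were higher and 1 lower. Arg1, arginase 1, had 42 reads in sham and 445 in BLM, and Retnla, a secreted product of alternatively activated macrophages, 55 and 266. The cytokine Tslp was lower (−1.10), and Il33 was at 8.59 and 8.46 CPM. Il4 and Il5 were not called, and Il13 had 0 and 6 reads, too few to be kept.

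Genes used to describe senescence were examined because the sort was made for it. None of the 12 cell cycle inhibitor and lamin genes was called higher and 1 was lower, against 8.96% and 7.01% of all genes. With 12 genes these counts are close to the background, and 8 of the 12 had ratios above 0. Cdkn1a, which encodes p21, was at 59.6 CPM in sham and 113 CPM in BLM, a log2 ratio of 0.93 (0.86 to 0.99). Cdkn2a, which encodes p16, had 28 and 33 reads, a log2 ratio of −0.01 (−0.78 to 0.77), so a difference within these bounds was not detectable at this depth. Cdkn2b, which encodes p15, was lower, at 9.67 and 3.49 CPM. Lmnb1, lamin B1, had a log2 ratio of 0.90, and Glb1, the lysosomal beta-galactosidase, one of 0.24. Of 20 p53 target genes, 1 was higher (5%, near the share of all genes) and 14 had ratios above 0. The higher gene was Gdf15, a stress-induced cytokine, with 41 and 212 reads. Mdm2, the canonical feedback target, had a log2 ratio of 0.16.

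The secretory phenotype list, of factors that senescent cells release, had 14 of 30 genes higher, against 8.96% of all genes, and none lower (median 0.86). The median was 0.73 over the 27 genes with at least 10 reads in both libraries. This was not particular to Lamp1-enriched cells. In Lamp1-depleted cells 14 of 30 were higher and none lower (median 0.86), against 13.3% of all genes there. In unsorted cells 22 of 31 were higher and 1 lower (median 1.53), also against 13.3%. Il1rn, the interleukin-1 receptor antagonist, was at 3.89 and 31.5 CPM, and Ereg, an EGF receptor ligand, had 18 and 252 reads. Cxcl12, the chemokine that retains progenitor cells in vessel niches, was at 524 and 1816 CPM. Il6 was at 2.46 and 3.91 CPM and was not called. Many of these factors are made by activated macrophages and fibroblasts too, whose lists were higher in the same library. Among 10 IGF and IGF-binding protein genes, Igf1 was higher, at 4.28 and 34.6 CPM, as was Igfbp5 (1.11), and Igfbp3 was lower (−1.61). The median of the list was −0.20, and −0.55 with an eleventh gene of fewer than 10 reads.

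Of 25 chemokine genes, 12 were higher and 3 lower. The median was 0.74, and 0.20 over the 20 genes with at least 10 reads in both libraries. Ccl7 had 3 reads in sham and 99 in BLM, a log2 ratio of 4.60 (3.21 to 7.10), and Ccl6 was at 44.2 and 170 CPM. Ccl12 had 0 and 16 reads, at least 4.50-fold higher against 3 reads. Cx3cl1, the membrane-bound chemokine fractalkine of endothelium, was lower, at 89.6 and 35.1 CPM, as were Ccl5 (−2.12) and Cxcl5 (−1.43). Of 20 complement genes, 7 were higher, 6 of them C1q chains, receptors and properdin of myeloid cells (C1qa, C1qb, C1qc, C3ar1, C5ar1 and Cfp) and the seventh C4b, and 3 were lower. The lower ones were C6, of the membrane attack complex, and Cd55 and Cd59a, which shield cells from complement, with log2 ratios of −1.27, −1.17 and −1.17. Of 25 interferon-stimulated genes, 3 were higher (12%, near the 8.96% of all genes), Cxcl9, Oas2 and Mx1, and the median was −0.20.

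Cell cycle genes were higher in 17 of 32 and lower in none (median 1.32), with genes of mitosis at the upper end. Mki67, a marker of cycling cells, was at 8.91 CPM in sham and 58.6 CPM in BLM, a log2 ratio of 2.72 (2.57 to 2.87). Top2a, the topoisomerase of mitotic chromosomes, was at 6.56 and 42.6 CPM, Cenpf, a kinetochore protein, at 1.65 and 13.7 CPM and Plk1, a mitotic kinase, at 0.369 and 2.95 CPM. The replication licensing genes Mcm2 to Mcm7 and Pcna had log2 ratios from −0.11 to 0.29, and none was called. Stmn1, a microtubule regulator, was the lowest at −0.30. Which cell type the cycling genes came from was not tested.

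**Figure D4:**
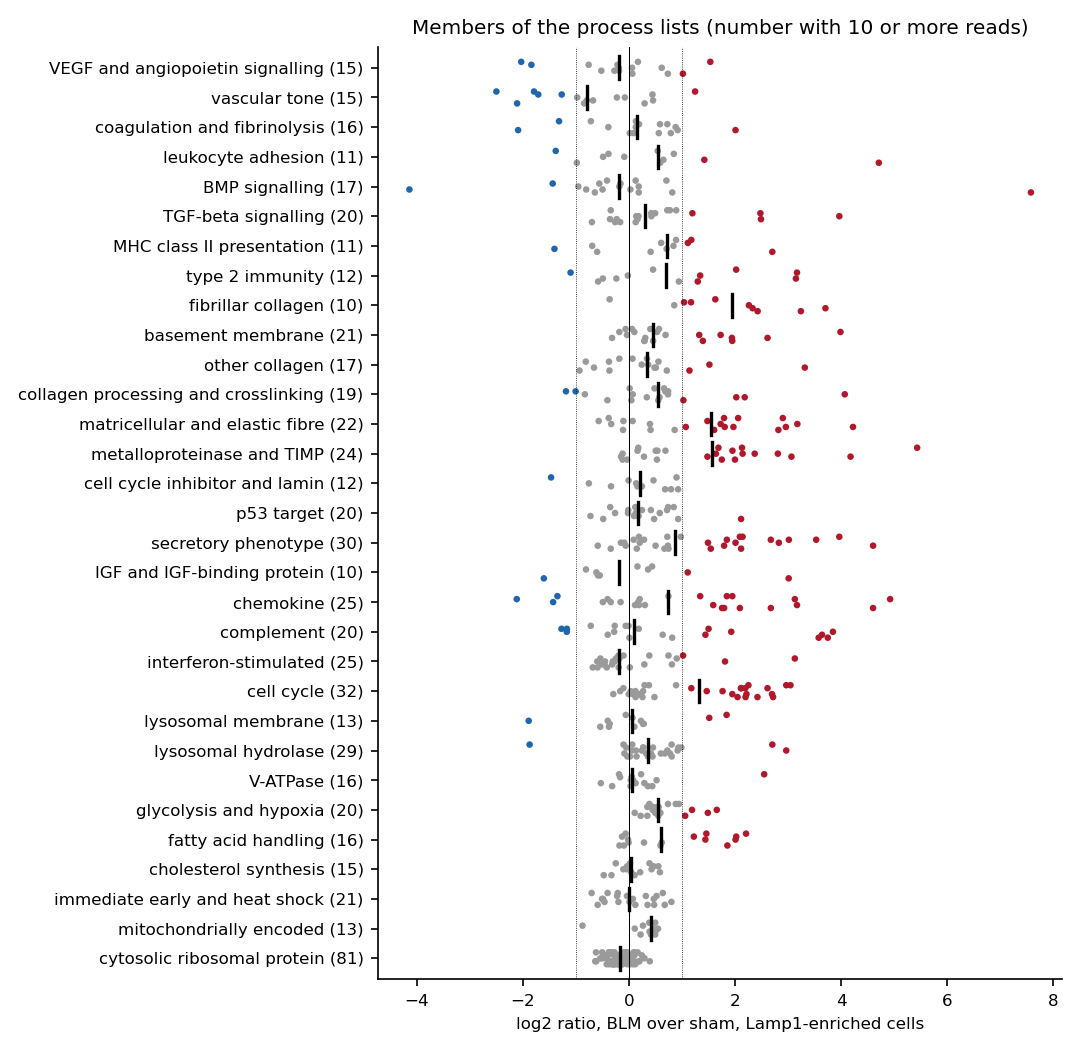
Log2 ratios of BLM over sham in Lamp1-enriched cells (x axis) for the members of 31 lists of pathways, processes or gene families (rows, with the number of genes that had at least 10 reads), in the colours of the cell type plot, with black bars at the medians and dotted lines at 2-fold. Matricellular, metalloproteinase and cell cycle genes spread to the right, vascular tone genes to the left, and ribosomal, cholesterol and heat shock genes stay between the dotted lines.

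Lysosomal genes differed little. Lamp1 had 22587 reads in sham and 20594 in BLM, at 491 and 378 CPM, a log2 ratio of −0.38 (−0.41 to −0.35), so the transcript of the sorted protein was not higher after BLM. Lamp2, its sister protein, was at 286 and 344 CPM. Of 13 lysosomal membrane genes, 2 were higher, Cd68 (1.84) and Cd63 (1.51), and Lamp3, a lamellar body protein of type 2 cells, was lower (−1.89). Among 29 hydrolases, Ctsk and Ctss were higher and Ctse was lower, and the median was 0.36. In unsorted cells 24 of the 29 were called higher (13.3% of 22772 genes), with a median of 2.03. Of 16 V-ATPase genes, 1 was higher, Atp6v0d2 (2.55), the subunit isoform of macrophages and osteoclasts.

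All 20 genes of glycolysis and hypoxia had ratios above 0 and 4 were called higher (median 0.55). Bnip3, a mitophagy receptor under HIF control, was at 31.9 and 89.3 CPM, and Hk2, an inducible hexokinase, at 2.85 and 8.99 CPM. In fatty acid handling, 7 of 16 were higher and none lower. Fabp4, a fatty acid carrier of capillaries and macrophages, was at 9.95 and 40.1 CPM, and Abca1, a cholesterol exporter, at 86.2 and 398 CPM. Cd36, a fatty acid receptor of capillary endothelium, was at 4130 and 3646 CPM. None of 15 cholesterol synthesis genes was called.

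Genes that respond to the handling of cells did not separate the 2 libraries at the 2-fold level. None of the 21 immediate early and heat shock genes was called, with a median of 0.01, and Fos was at 306 and 389 CPM and Egr1 at 706 and 433 CPM. None of the 13 mitochondrially encoded genes was called either, although 12 of the 13 were above 0 (median 0.41). None of 81 cytosolic ribosomal protein genes was called, with a median of −0.16. The share of reads on Gm26917 was 0.884% in sham and 1.53% in BLM.

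The highest log2 ratios by rank, outside the genes already described, were those of Glod5, Susd2, Vwa1 and Ephb1. Glod5 had 0 reads in sham and 107 in BLM, at least 30.1-fold higher against 3 reads, and 0 and 23 reads in unsorted cells. Susd2, a membrane protein with a sushi domain, was at 1.07 and 25.9 CPM. Vwa1, a matrix protein with a von Willebrand factor A domain, was at 0.978 and 19.9 CPM, and Ephb1, a receptor for ephrin-B ligands, had 8 and 178 reads. In unsorted cells the log2 ratios of Susd2, Ephb1 and Vwa1 were 3.40, 2.64 and 2.46.

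BLM over sham in the other fractions is set beside these values without a test, since each fraction has 1 library a side. The sources used here do not say whether the fractions of a treatment came from 1 pool of lungs. Of the 1941 genes called higher in Lamp1-enriched cells, 1727 had at least 10 reads in an unsorted library. Among these, 908 were called higher there, against 13.3% of all genes in unsorted cells, and 75 lower. Of 1388 with enough reads in Lamp1-depleted cells, 603 were called higher there, against 13.3% of all, and 145 lower. Of the 1519 genes called lower, 736 of 1376 were lower in unsorted and 473 of 1112 in Lamp1-depleted cells, against 14.1% and 19.7% of all.

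List medians are given side by side for the 3 fractions. The scar-associated macrophage median was 2.02 in Lamp1-enriched, 2.40 in Lamp1-depleted and 3.71 in unsorted cells. The activated fibroblast median was 2.29 in Lamp1-enriched cells, 1.06 in Lamp1-depleted and 1.48 in unsorted cells, and that of fibrillar collagens was 1.94, 1.59 and 0.92. Platelet medians were −2.43, −1.63 and −2.14. Whether any of these sizes differ beyond the variation between mice was not tested.

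**Figure D5:**
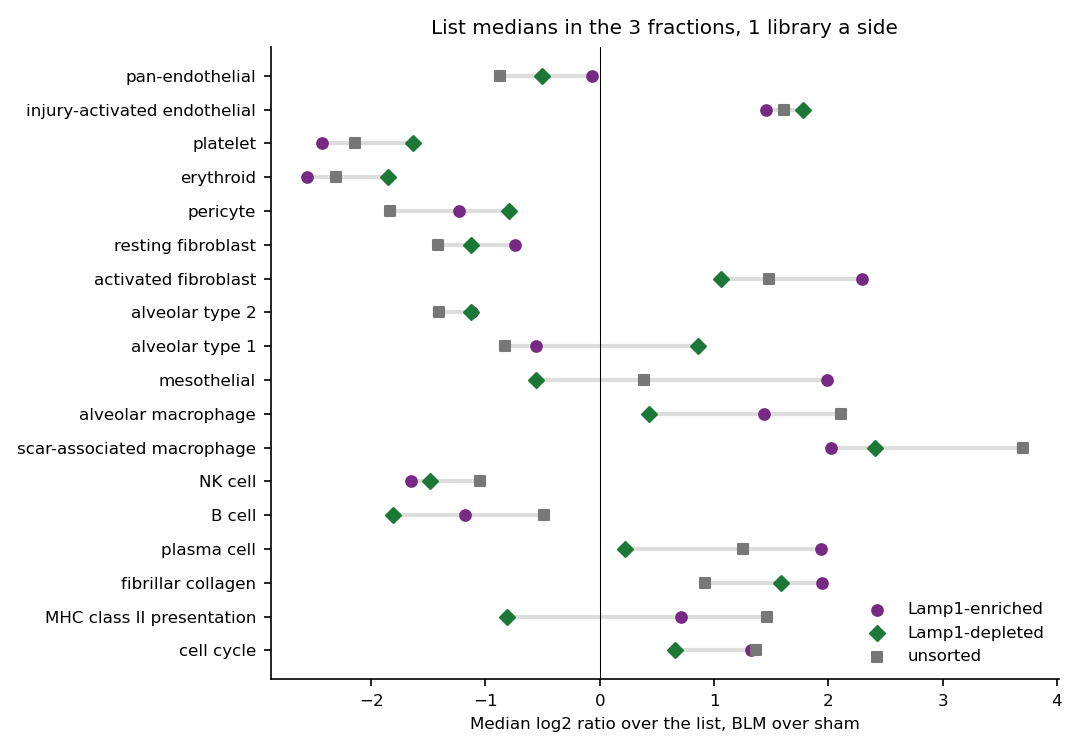
Median log2 ratio of BLM over sham (x axis) of 18 gene lists (rows) in Lamp1-enriched, Lamp1-depleted and unsorted cells, 1 library a side in each fraction. Platelet, erythroid, pericyte and NK cell medians are below 0 in the 3 fractions, scar-associated macrophage and injury-activated endothelial medians are above 0 in the 3, and the mesothelial, alveolar type 1 and MHC class II medians lie on either side.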

How the data were processed

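PolyA RNA of 6 lung cell samples was sequenced as paired reads, and the authors deposited a table of raw read counts for 49315 Ensembl genes with no normalization. Per the submitters' processing notes, the tools were Trimmomatic 0.36, STAR 2.5.2b, featureCounts, Subread 1.5.2 and DESeq2, with build GRCm38. Strand setting, annotation release and the treatment of multiply mapped reads are not given in the sources used here. Samples were grouped by their labels. TMM factors were computed over the 6 libraries with edgeR 4.0.16 under R 4.3.3, and ratios in Python 3.11.15 with numpy 2.4.6, pandas 2.3.3 and scipy 1.17.1. Figures were drawn with matplotlib 3.10.9.

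A log2 ratio is that of scaled counts with a prior of 0.5 reads scaled to library size. Its 95% interval comes from the exact binomial (Clopper-Pearson) bounds on the BLM part of a gene's reads and covers counting error only. PCR copies are not independent molecules, so it is too narrow even for that. A gene at 0 reads was compared with a floor of 3 reads per library. Genes at 1 to 3 reads in a library, such as Grem1, Lrrc15, Cldn4 and Ccl7, were not set against this floor. Their ratios are therefore uncertain in size and not comparable with those bounds. Calls needed a ratio of 2 in size and an interval clear of 0 on the log2 scale. No p-value was computed, since each condition has 1 library. The programs were tested on simulated counts. Coordinates and biotypes came from GENCODE M21 (49056 genes matched by identifier, 259 not), promoters from RefSeq.

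The 59 gene lists were written from general knowledge, and members and lists were chosen with earlier results of these data known. Named genes were the 15 with the highest and the 15 with the lowest log2 ratio among genes with at least 100 reads, leaving out predicted genes, pseudogenes and antigen receptor segments, the 2 at each end of every list among members with at least 50 reads, and 30 named in advance. Not all are printed, and other members named were chosen after their values were seen, as were the motifs. Alternatives were DESeq2 1.42.0 size factors, total counts, TMM factors from the 2 libraries, a prior of 2 reads, other read minimums, thinned counts, protein-coding genes and other call rules. The result for 1 gene is not reported here.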

Additional observations from a re-analysis of the deposited data

Results flagged for a closer look

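Genes and lists were looked at again where BLM over sham went in opposite directions in Lamp1-enriched and Lamp1-depleted cells. With 1 library on each side, the difference was not tested for any of them. Scgb1a1, the club cell secretory protein, had a log2 ratio of −1.37 in Lamp1-enriched cells and 1.79 in Lamp1-depleted cells. Bpifa1, another secreted airway protein, had one of −2.98 and 1.53, on 237 and 35 reads in Lamp1-enriched and 37 and 50 reads in Lamp1-depleted cells. Adamts14, a procollagen protease, had one of −1.19 and 1.19.

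Among lists, the mesothelial median was 1.99 in Lamp1-enriched and −0.56 in Lamp1-depleted cells, on 5 and 6 genes. The alveolar type 1 median was −0.56 and 0.86, and the median of MHC class II presentation was 0.71 and −0.82. In unsorted cells these medians were 0.39, −0.83 and 1.46. The Lamp1-depleted values rest on a BLM library in which 38.4% of reads fell on Gm26917. In that fraction mitochondrially encoded genes had a median of 1.27, cytosolic ribosomal protein genes one of −1.12 and all genes one of −0.20, and the part of this in the opposite directions was not tested. Called genes were 3 of 5, 3 of 9 and 4 of 11 in Lamp1-enriched cells. No named gene called in Lamp1-enriched cells was called in the opposite direction in unsorted cells, and no list median passed 0.5 in size on opposite sides there.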

How the results depend on the processing

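With 1 library per condition there was no replicate to leave out. No paired analysis was possible because each condition has 1 library. Other scalings shifted every log2 ratio by at most 0.0135, and of the counts of called genes, 1904 were higher with DESeq2 size factors and 1969 with total counts, against 1941. Counts moved with the genes kept and the size of ratio required. With at least 50 reads, 1018 genes were higher and 747 lower, with protein-coding genes only 1269 and 863, with a log2 ratio of at least 2 in size 778 and 454, and with at least 10 reads in both libraries, chosen after seeing the data, 1121 and 999. Of 530 list medians under the alternatives, 519 moved by less than the median half-width of their members' counting intervals. The other 11 moved further, and none changed sign. With at least 10 reads in both libraries, the medians were 1.34 for activated fibroblasts, 0.74 for plasma cells, 1.63 for fibrillar collagens, 0.20 for chemokines and 0.18 for TGF-beta signalling. With at least 50 reads the activated fibroblast median was 1.80. With at least 1 read, medians were 1.08 for mesothelial, 1.34 for plasma cell, 1.71 for fibrillar collagen and −0.55 for IGF genes. The plasma cell median was 0.59 with protein-coding genes only, which leaves out the antibody genes. Of 252 named genes, none that was called reversed.

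Depth limits genes of few reads, such as Cdkn2a, and differences between mice cannot be told apart from treatment. The medians of neutrophil, metalloproteinase and chemokine lists were the same with Ly6g, Mmp10 and Ccl12 at their bounds.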
